A study of Sus scrofa with 13 samples.

Results

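The genes of the pig major histocompatibility complex (MHC) and their partners in antigen presentation were followed in heart muscle after an experimental infarction. Members were taken from the platform annotation: every probe set whose gene symbol began with SLA-, the prefix for swine leukocyte antigen genes, or was B2M, CD74, TAP1, TAP2, TAPBP or CIITA. The rule found 33 of 23999 probe sets, of which 32 carried 1 symbol and 1 was shared by SLA-2 and SLA-3. They stood for 17 of the 6765 genes that had a probe set with 1 symbol, and no probe set of TAP2 was found. A further 7 probe sets were annotated both to a member gene and to an unnamed locus, LOC100513601 or LOC106504372, and are given apart. The pig gene table lists SLA-1 among the synonyms of the first locus and SLA-DRB among those of the second, and SLA-1 was covered only through such shared probe sets.

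Gene expression was measured on Affymetrix porcine arrays in drill biopsies of the heart of 13 female Sinclair miniswine. The animals were 3 months old and weighed about 10 kg when an infarct was set by tying off the first and second diagonal branch of the left anterior descending artery for good. A group of 7 then received 50000000 cells, called stem cells and MPCs in the labels, in 2 ml saline, shared among 5 sites of the border zone around the infarct, and the other 6 received the same volume of saline without cells, also at 5 border zone sites. Biopsies were taken at month 4, 1 array per animal, and their distance from the infarct is not given in the labels. No uninjured heart was among the samples, so both groups had the infarct, the operation and the injections in common. The labels name neither the donor of the cells nor any drug given against rejection. The median deposited intensity per array was 13.5 to 14, and the correlation between any pair of arrays was 0.936 to 0.986. Sarcomere genes averaged a log2 intensity of 13.84 to 14.18 in every animal, as the label heart would have it.

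MHC class I molecules consist of a polymorphic heavy chain and the invariant light chain beta-2-microglobulin, and show peptides from inside the cell to CD8 T cells and natural killer cells. Class II molecules are pairs of an alpha and a beta chain that show peptides from endocytosed protein to CD4 T cells, and are made mainly by macrophages, dendritic cells, B cells and, in the pig, also by endothelium. In the pig SLA-1, SLA-2 and SLA-3 are the classical class I genes, SLA-6, SLA-7 and SLA-8 the non-classical ones, and DR and DQ the class II molecules that present peptides. Only genes of the rule were ranked by position in the gene table of the assembly Sscrofa11.1, so genes between them are not shown. The class I genes came in the order SLA-1, SLA-2, SLA-3, SLA-8, SLA-7, SLA-6. Later on the same chromosome came SLA-DRA, SLA-DRB1, SLA-DQA1, SLA-DQB1, TAP2, TAP1, SLA-DMB, SLA-DMA, SLA-DOA and TAPBP. B2M, CD74 and CIITA lie on other chromosomes. The classical class I genes and the DR and DQ beta chains are known as highly polymorphic, and the labels give no SLA type of the animals.

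No antigen presentation gene passed the test for a difference between hearts given stem cells and hearts given saline, and most differences were small beside the spread between animals. With limma, 27 of the 33 member probe sets passed the filter on low values (a mean log2 intensity above 3.36) and 0 of them had an adjusted p under 0.05, where the share over all 14399 probe sets tested was 0 percent. At an unadjusted p under 0.05 the count was again 0 of 27, against 1519 of all probe sets, or 10.5 percent. Groups that did not overlap, with every animal of one above every animal of the other, occurred in 0 of 27 members and in 40 of all probe sets, or 0.278 percent. The smallest adjusted p of a member was 0.486, and the smallest of any probe set was 0.393. The difference between the groups, as log2 of stem cells minus saline, was below 0 for 20 tested members and above 0 for 7, with a median of -0.12, and over all probe sets it was below 0 for 6793 and above 0 for 7606, with a median of 0.02. The median SE of a member's difference was 0.19. In a biopsy of mixed tissue a smaller number of cells of a type and less RNA per cell cannot be told apart.

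**Figure D1:**
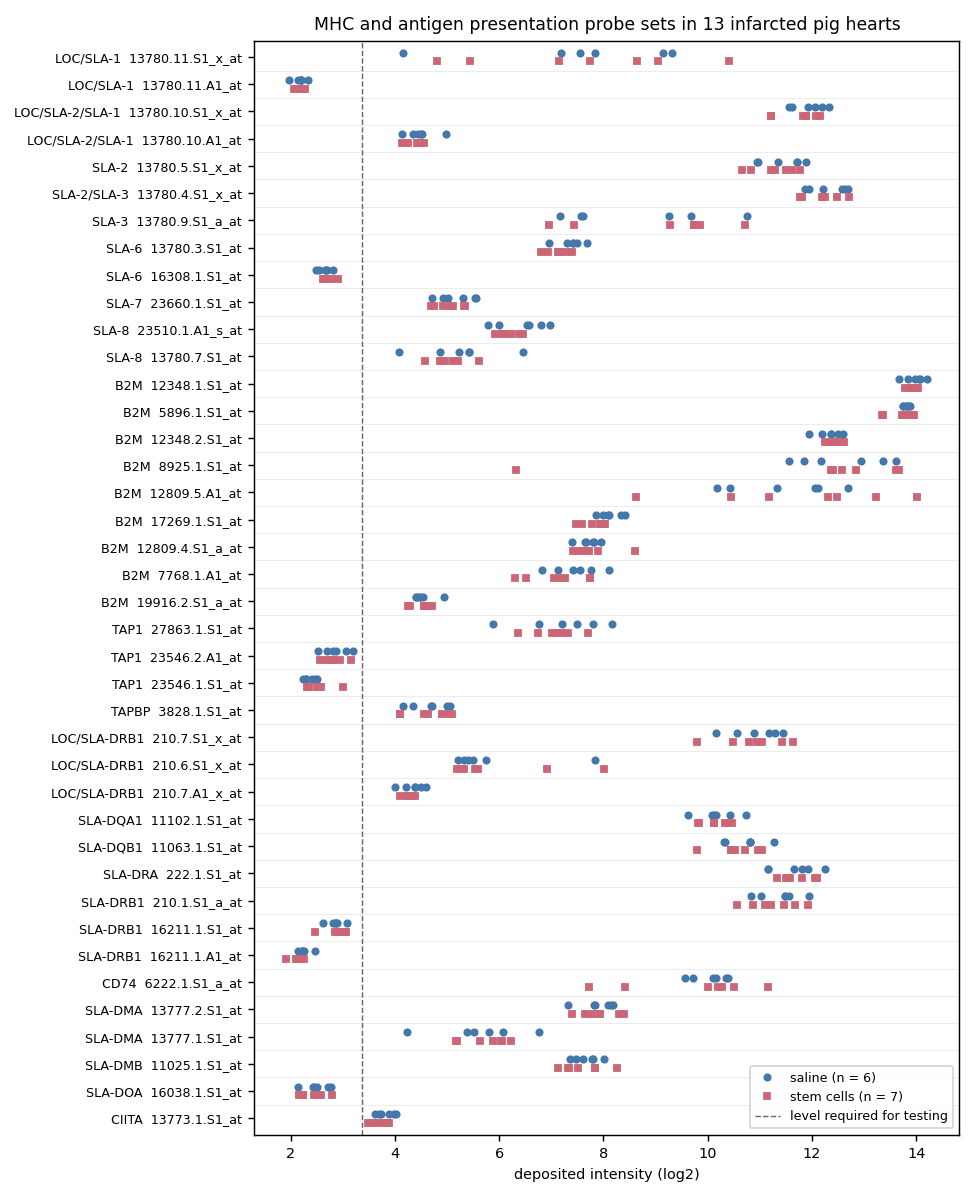
Deposited intensity on the log2 scale (x axis) for each of the 33 member probe sets and the 7 shared with an unnamed locus (marked LOC), 1 point per animal: circles for saline (n = 6), squares for stem cells (n = 7), and a dashed line at the level of 3.36 required for testing. The groups overlap for every probe set shown, and SLA-3, CD74 and some B2M probe sets spread over several log2 units among animals.

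Among the classical class I heavy chains, SLA-2 (Ssc.13780.5.S1_x_at) had log2 intensities from 10.94 through a median of 11.54 to 11.88 in the saline hearts and from 10.65 through 11.30 to 11.78 in the stem cell hearts. The groups covered nearly the same span, and the difference was -0.16 ± 0.21 (SE, limma, adjusted p = 0.791). The probe set shared by SLA-2 and SLA-3 (Ssc.13780.4.S1_x_at) ran from 11.86 through 12.40 to 12.69 after saline and from 11.78 through 12.21 to 12.72 after stem cells, a difference of -0.12 ± 0.18. Both were high in the same animals, with saline replicate 2 and stem cells replicate 5 at the top of their groups and stem cells replicate 6 at the bottom. These probe sets belong to a family of near-identical genes and may share probes or signal, so that how much each reports of SLA-1, SLA-2 or SLA-3 cannot be told from the deposited values.

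SLA-3, the remaining classical gene, split the animals. The log2 intensity of its probe set (Ssc.13780.9.S1_a_at) was 7.57, 7.16, 10.76, 7.60, 9.68 and 9.26 in saline replicates 1 to 6, and 9.85, 9.27, 9.74, 9.73, 6.95, 10.72 and 7.44 in stem cells replicates 1 to 7. An upper set of 8 animals lay between 9.26 and 10.76 and a lower set of 5 between 6.95 and 7.60, with both treatments in each: 3 saline and 2 stem cell hearts were in the lower set. The group means differed by 0.43 ± 0.67 (SE), with a 95% interval from -1.0 to 1.86. The spread within the groups (pooled SD 1.41) was above that of 99.2 percent of all probe sets tested.

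The probe set annotated to LOC100513601 and SLA-1 (Ssc.13780.11.S1_x_at) varied even more. It measured 9.31, 7.83, 4.15, 9.14, 7.18 and 7.55 in saline replicates 1 to 6 and 7.75, 5.44, 8.65, 7.14, 10.40, 4.80 and 9.05 in stem cells replicates 1 to 7. Its 3 lowest animals were saline replicate 3 and stem cells replicates 2 and 6, and its pooled SD of 1.93 lay above that of 99.8 percent of probe sets. The difference between the groups was 0.08 ± 0.92. A second shared probe set, of LOC100513601, SLA-2 and SLA-1 (Ssc.13780.10.S1_x_at), stayed between 11.21 and 12.33 over all animals and differed by -0.19 ± 0.18. The remaining shared class I probe sets were dim: Ssc.13780.10.A1_at differed by -0.09 ± 0.14, and Ssc.13780.11.A1_at lay at 1.96 to 2.33, under the level for testing.

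Among the non-classical heavy chains, SLA-6 (Ssc.13780.3.S1_at) ran from 6.95 through a median of 7.41 to 7.68 after saline and from 6.81 through 7.15 to 7.40 after stem cells. The stem cell hearts were below the saline mean in 6 of 7 animals, with overlap, and the difference of -0.25 ± 0.16 had an adjusted p of 0.574 with limma. A second SLA-6 probe set (Ssc.16308.1.S1_at) lay at 2.48 to 2.91 in all animals and was not tested. SLA-7 (Ssc.23660.1.S1_at) ran from 4.71 through 5.15 to 5.54 after saline and from 4.70 through 5.05 to 5.35 after stem cells, a difference of -0.14 ± 0.18.

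Both SLA-8 probe sets had lower means after stem cells without passing the test. Ssc.23510.1.A1_s_at ran from 5.79 through 6.55 to 6.98 after saline and from 5.91 through 6.10 to 6.46 after stem cells, a difference of -0.27 ± 0.20. Ssc.13780.7.S1_at ran from 4.07 through 5.32 to 6.45 and from 4.57 through 4.96 to 5.62, a difference of -0.21 ± 0.29. In both the saline hearts spanned the stem cell hearts at either end, with saline replicate 2 highest and saline replicate 6 lowest. The saline SD was 0.46 and 0.78 for these probe sets, and the stem cell SD 0.19 and 0.33. The difference in spread was not tested.

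B2M, which encodes the light chain shared by class I molecules, was represented by 9 probe sets whose values did not run in parallel. The brightest (Ssc.12348.1.S1_at) ran from 13.67 through a median of 14.01 to 14.21 after saline and from 13.78 through 13.97 to 14.04 after stem cells. Its difference was -0.03 ± 0.08, with a 95% interval from -0.21 to 0.15, the narrowest of any member. The probe sets Ssc.5896.1.S1_at and Ssc.12348.2.S1_at were also bright and steady, with differences of -0.11 ± 0.10 and 0.12 ± 0.11.

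A pair of bright B2M probe sets varied widely instead. Ssc.8925.1.S1_at ran from 11.56 through 12.56 to 13.62 after saline and from 6.32 through 12.57 to 13.67 after stem cells. The low value belonged to stem cells replicate 6 alone, and the other 6 stem cell hearts were at 12.36 or above. The difference was -0.61 ± 0.93, and without that animal it was 0.33. Ssc.12809.5.A1_at ran from 10.18 through 11.69 to 12.68 after saline and from 8.61 through 12.30 to 14.01 after stem cells, a difference of 0.29 ± 0.72. Both lay above 99 percent of probe sets in spread, at percentiles 99.8 and 99.4, with the stem cell hearts covering the wider span.

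Of the 4 dimmer B2M probe sets, Ssc.17269.1.S1_at came closest to a difference of all members. It ran from 7.86 through 8.10 to 8.42 after saline and from 7.48 through 7.92 to 8.03 after stem cells. All 7 stem cell hearts lay below the saline mean of 8.13, but the groups overlapped, and the difference of -0.31 ± 0.15 had an unadjusted p of 0.0573 and an adjusted p of 0.486 with limma. The others differed by 0.06 ± 0.19 (Ssc.12809.4.S1_a_at), -0.35 ± 0.27 (Ssc.7768.1.A1_at) and -0.02 ± 0.13 (Ssc.19916.2.S1_a_at). Over the 36 pairs of B2M probe sets Pearson's r across animals ran from -0.78 to 0.63 and was above 0 in 16, so that a value for B2M depends on the probe set taken.

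**Figure D2:**
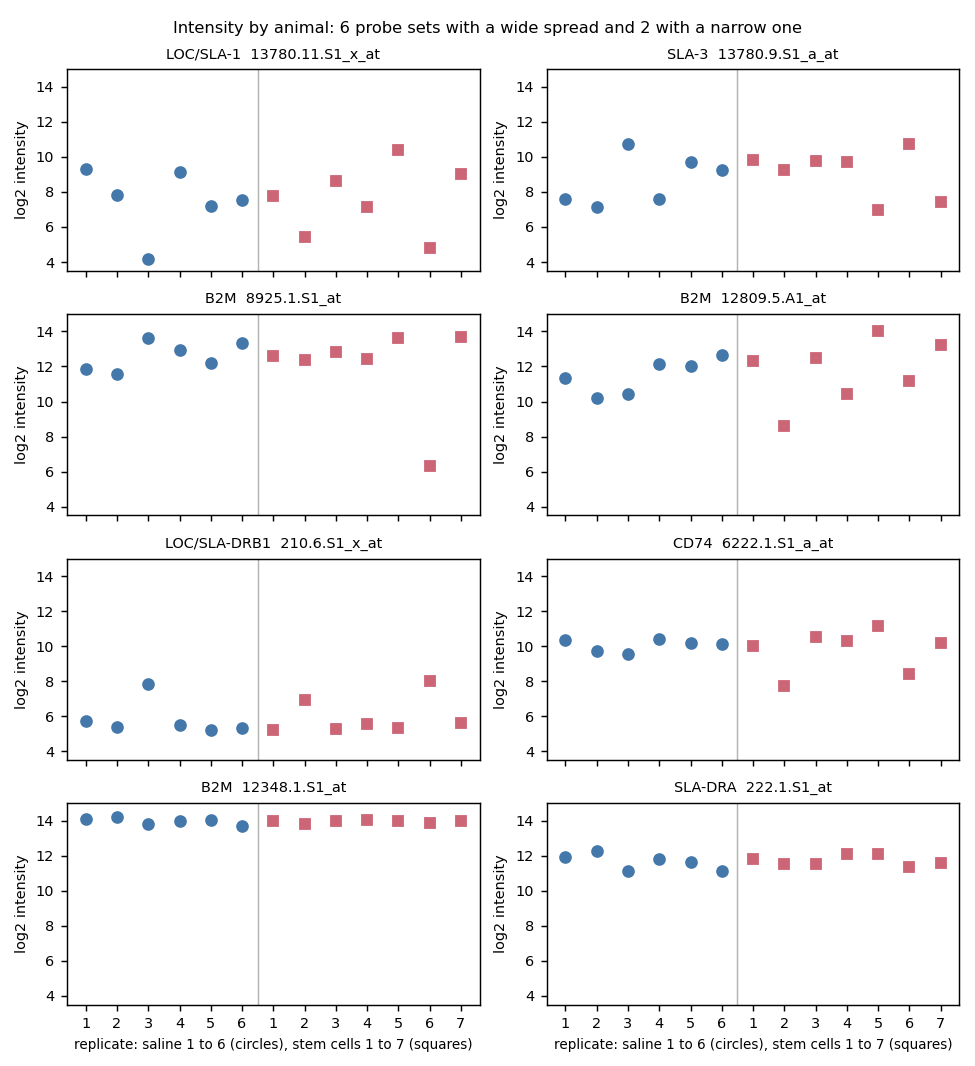
Log2 intensity (y axis) by animal (x axis: saline replicates 1 to 6 as circles, stem cells replicates 1 to 7 as squares) for the 6 tested probe sets with the widest spread and, in the bottom row, for B2M Ssc.12348.1.S1_at with a narrow one and for SLA-DRA. The title counts SLA-DRA as narrow, but its pooled SD was 0.37, against a median of 0.32 over all probe sets tested. SLA-3 is low in 5 animals of both groups, B2M Ssc.8925.1.S1_at is low in stem cells replicate 6, and saline replicate 3 and stem cells replicates 2 and 6 are the highest for the LOC106504372 and SLA-DRB1 probe set and the lowest for the LOC100513601 and SLA-1 probe set.

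The transporter TAP1, which with TAP2 pumps peptides into the endoplasmic reticulum, had 3 probe sets, 1 of them tested. Ssc.27863.1.S1_at ran from 5.88 through 7.36 to 8.15 after saline and from 6.37 through 7.10 to 7.69 after stem cells. The lowest and the highest animal were both saline hearts, and the difference was -0.16 ± 0.32. The others (Ssc.23546.2.A1_at and Ssc.23546.1.S1_at) lay between 2.23 and 3.20. TAPBP encodes tapasin, which bridges class I molecules to the transporter, and ran from 4.15 through 4.70 to 5.05 and from 4.10 through 4.63 to 5.10, a difference of -0.02 ± 0.21.

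Class II antigen-binding chains were well above the level for testing in every heart, and the groups overlapped over most of their span. SLA-DRA, the DR alpha chain, ran from 11.15 through a median of 11.73 to 12.24 after saline and from 11.33 through 11.58 to 12.10 after stem cells. The difference was 0.05 ± 0.19, with a 95% interval from -0.35 to 0.45. SLA-DRB1, its beta chain (Ssc.210.1.S1_a_at), ran from 10.84 through 11.48 to 11.95 and from 10.57 through 11.22 to 11.92, a difference of -0.13 ± 0.22. For both chains saline replicate 2 was the highest of all animals and stem cells replicate 4 the highest of its group. A pair of further SLA-DRB1 probe sets (Ssc.16211.1.S1_at and Ssc.16211.1.A1_at) lay between 1.92 and 3.07 and were not tested.

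SLA-DQA1, the DQ alpha chain, ran from 9.63 through 10.14 to 10.74 after saline and from 9.82 through 10.13 to 10.46 after stem cells, a difference of -0.04 ± 0.17. SLA-DQB1, the DQ beta chain, ran from 10.31 through 10.81 to 11.26 and from 9.79 through 10.53 to 11.05, a difference of -0.16 ± 0.20. Neither chain separated the groups, and saline replicate 2 was again the highest animal for both.

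Probe sets annotated to both LOC106504372 and SLA-DRB1 numbered 3. Ssc.210.7.S1_x_at varied from 9.79 to 11.64 and differed by -0.04 ± 0.28, and the dim Ssc.210.7.A1_x_at differed by -0.08 ± 0.11. Ssc.210.6.S1_x_at behaved otherwise: 10 animals lay at 5.19 to 5.75, and saline replicate 3, stem cells replicate 2 and stem cells replicate 6 lay at 7.85, 6.91 and 8.02. Those 3 animals were the lowest of the 13 for the LOC100513601 and SLA-1 probe set, a match noticed after the values were seen, for which no correlation is given because the animals fell into separate clusters. The group difference of Ssc.210.6.S1_x_at was 0.14 ± 0.50.

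CD74 encodes the invariant chain, which holds class II molecules until they reach the endosome. Its log2 intensity was 10.36, 9.72, 9.57, 10.39, 10.17 and 10.10 in saline replicates 1 to 6, and 10.01, 7.73, 10.50, 10.28, 11.15, 8.42 and 10.20 in stem cells replicates 1 to 7. The stem cell group held the 2 lowest animals, replicates 2 and 6, and the 2 highest, replicates 5 and 3. The group SDs were 0.33 after saline and 1.22 after stem cells, a contrast in spread that was not tested, and the means differed by -0.30 ± 0.45. Its spread within the groups lay above that of 97.0 percent of all probe sets.

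SLA-DMA and SLA-DMB form the molecule that exchanges the invariant chain fragment for a peptide. The probe sets of SLA-DMA differed by 0.015 ± 0.19 (Ssc.13777.2.S1_at) and 0.11 ± 0.33 (Ssc.13777.1.S1_at), and the latter ran from 4.23 through 5.66 to 6.77 after saline and from 5.17 through 5.87 to 6.23 after stem cells. SLA-DMB ran from 7.36 through 7.69 to 8.01 and from 7.12 through 7.51 to 8.26, a difference of -0.07 ± 0.19. The stem cell hearts reached beyond the saline hearts at both ends for SLA-DMB and lay inside them for the second SLA-DMA probe set. SLA-DOA, a chain of the molecule that restrains this exchange, lay at 2.14 to 2.79 and was not tested.

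CIITA encodes the class II transactivator, without which class II genes are not transcribed. It was just above the level for testing, from 3.62 through 3.81 to 4.03 after saline and from 3.48 through 3.61 to 3.88 after stem cells. The difference was -0.15 ± 0.10 (SE, limma, adjusted p = 0.590), with 5 of 7 stem cell hearts below the saline mean.

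**Figure D3:**
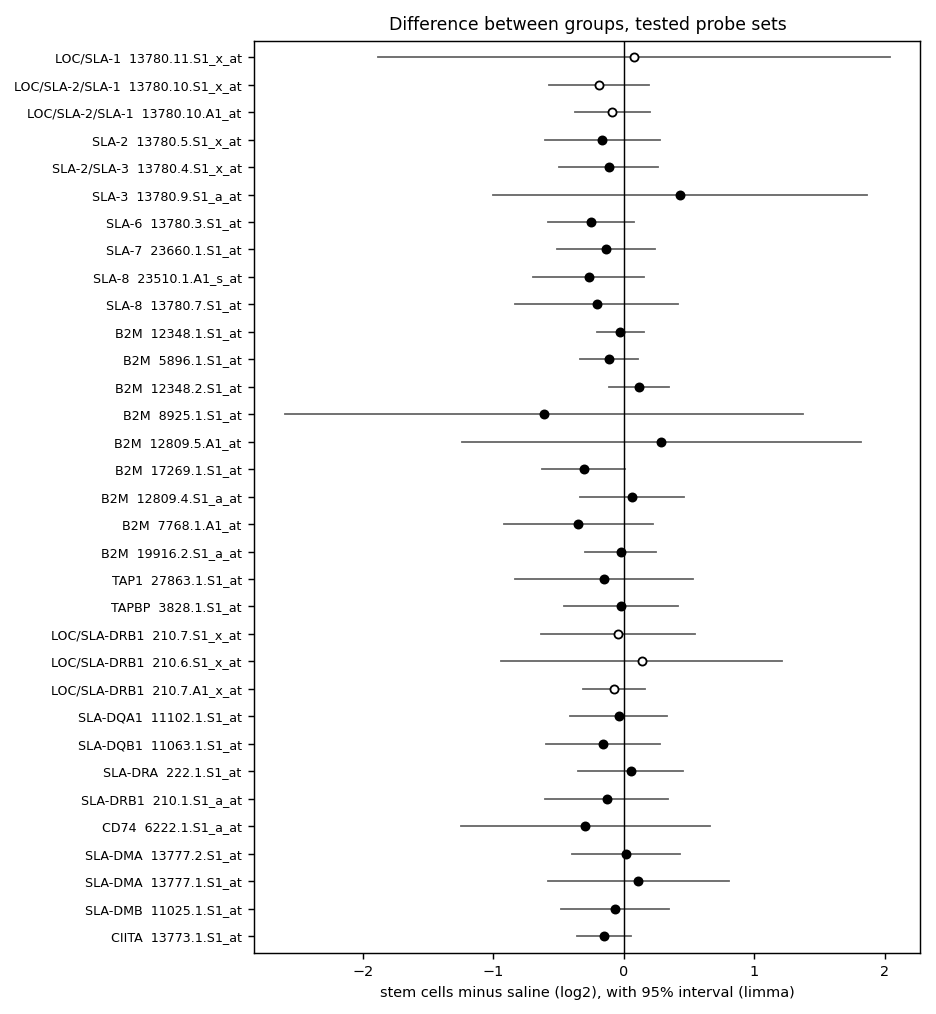
Difference between the groups, stem cells minus saline on the log2 scale (x axis), with its 95% interval from limma, for the 27 tested members (filled circles) and the 6 tested probe sets shared with an unnamed locus (open circles). Every interval spans 0, and the widest belong to B2M Ssc.8925.1.S1_at, the LOC100513601 and SLA-1 probe set, B2M Ssc.12809.5.A1_at and SLA-3.

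Class I was set against class II as groups, as a description without a test. Of 7 tested class I heavy chain probe sets 6 had a difference below 0, with a median of -0.16 and a range from -0.27 to 0.43, and SLA-3 was the exception. Of 7 tested class II probe sets (DR, DQ and DM chains) 4 had a difference below 0, with a median of -0.04 and a range from -0.16 to 0.11. The 9 B2M probe sets had a median of -0.03, with 6 below 0. With the probe sets shared with an unnamed locus added, the medians were -0.15 for 10 class I and -0.04 for 10 class II probe sets.

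For each animal the mean class I level was set against the mean class II level, after subtracting each probe set's mean over all animals. Class I minus class II was 0.04, -0.17, 0.26, -0.13, 0.03 and 0.20 in saline replicates 1 to 6, and -0.08, -0.02, 0.21, -0.05, -0.33, 0.25 and -0.21 in stem cells replicates 1 to 7. The group means were 0.04 ± 0.17 (SD, n = 6) and -0.03 ± 0.21 (SD, n = 7), closer together than the spread within either. A further setting, not planned at the start, left out SLA-3, whose wide values weigh on the class I mean. SLA-3 was also the only tested class I member with a positive difference. Without it the group means were 0.09 ± 0.13 and -0.07 ± 0.10 (SD). These means lay farther apart than either SD, with the groups still overlapping, and the contrast was not tested.

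Differences between animals were in part shared among members. For a first family of pairs, B2M with each class I gene, CD74 with each class II gene and CIITA, and B2M, CD74 and SLA-DRA with lists of immune markers, 24 relations were computed and 0 passed a Benjamini-Hochberg adjusted p of 0.05. The strongest was B2M, by its brightest probe set, with SLA-2, at Pearson's r of 0.73 and Spearman's rho of 0.72 over 13 animals (permutation p = 0.00338, adjusted p = 0.0811). Its r was 0.70 without the 2 animals farthest from the median, and the other B2M probe sets had r with SLA-2 of -0.35 to 0.43. The relation of the brightest B2M probe set with SLA-2 had an adjusted permutation p of 0.0391 within the larger family of pairs described next. That family was formed afterwards and holds probe sets of the same gene, so it lends no added support. CD74 followed SLA-DRA at r of 0.39 and CIITA at 0.07, with adjusted permutation p of 0.316 and 0.849.

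Relations among all 33 tested probe sets, members and shared, were computed after these values had been seen. Of 528 pairs, 435 involved no probe set whose animals fell into separate clusters. Among these 43 positive and 2 negative correlations had a permutation p adjusted over all pairs under 0.05. The positive ones include probe sets of the same or a shared gene, such as the SLA-8 pair (r 0.90) and SLA-2 with the SLA-2 and SLA-3 probe set (r 0.96). No such count was made for probe sets outside the family, so it cannot be called particular to these genes. Most pairs of DR and DQ chains co-varied from heart to heart. SLA-DQB1 and SLA-DRB1 had r of 0.94 and rho of 0.88 (adjusted permutation p = 0.00132 and 0.00792). Their r was 0.99 within the saline group, 0.90 within the stem cell group and 0.90 without the 2 farthest animals. SLA-DRA and SLA-DRB1 had r of 0.90 and rho of 0.92 (adjusted permutation p = 0.00264 and 0.00106), and 0.86 without the 2 farthest animals. Over the 6 pairs of these 4 chains r ran from 0.63 to 0.94. SLA-DQA1 passed with neither DR chain: r was 0.71 with SLA-DRA and 0.63 with SLA-DRB1 (adjusted permutation p = 0.0588 and 0.12). SLA-DMB followed SLA-DRB1 at r of 0.82 (rho 0.79, adjusted permutation p = 0.0218 and 0.0492). Its partner SLA-DMA did not, at r of -0.42 (Ssc.13777.2.S1_at) and -0.10 (Ssc.13777.1.S1_at) with SLA-DRB1 (adjusted permutation p = 0.367 and 0.873).

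Some class I heavy chains co-varied with a loading gene. SLA-2 followed TAPBP at r of 0.83 and rho of 0.76 (adjusted permutation p = 0.0218 and 0.0623), and r was 0.77 without the 2 farthest animals. SLA-7 followed TAP1 at r of 0.79 and rho of 0.70 (adjusted permutation p = 0.0238 and 0.106). SLA-6 and SLA-8 followed neither at the threshold: r with TAP1 or TAPBP was 0.36 to 0.60, with adjusted permutation p of 0.146 to 0.469. The brightest B2M probe set followed SLA-DRA at r of 0.82 and rho of 0.74 (adjusted permutation p = 0.0218 and 0.0726), and r was 0.67 without the 2 farthest animals. The other B2M probe sets had r with SLA-DRA of -0.57 to 0.51. CD74 followed SLA-2 at r of 0.72 over all animals, 0.35 within the saline and 0.91 within the stem cell group, and its rho of 0.66 had an adjusted permutation p of 0.14. All these values come from 1 biopsy per animal, so the genes share the tissue sampled and the array.

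**Figure D4:**
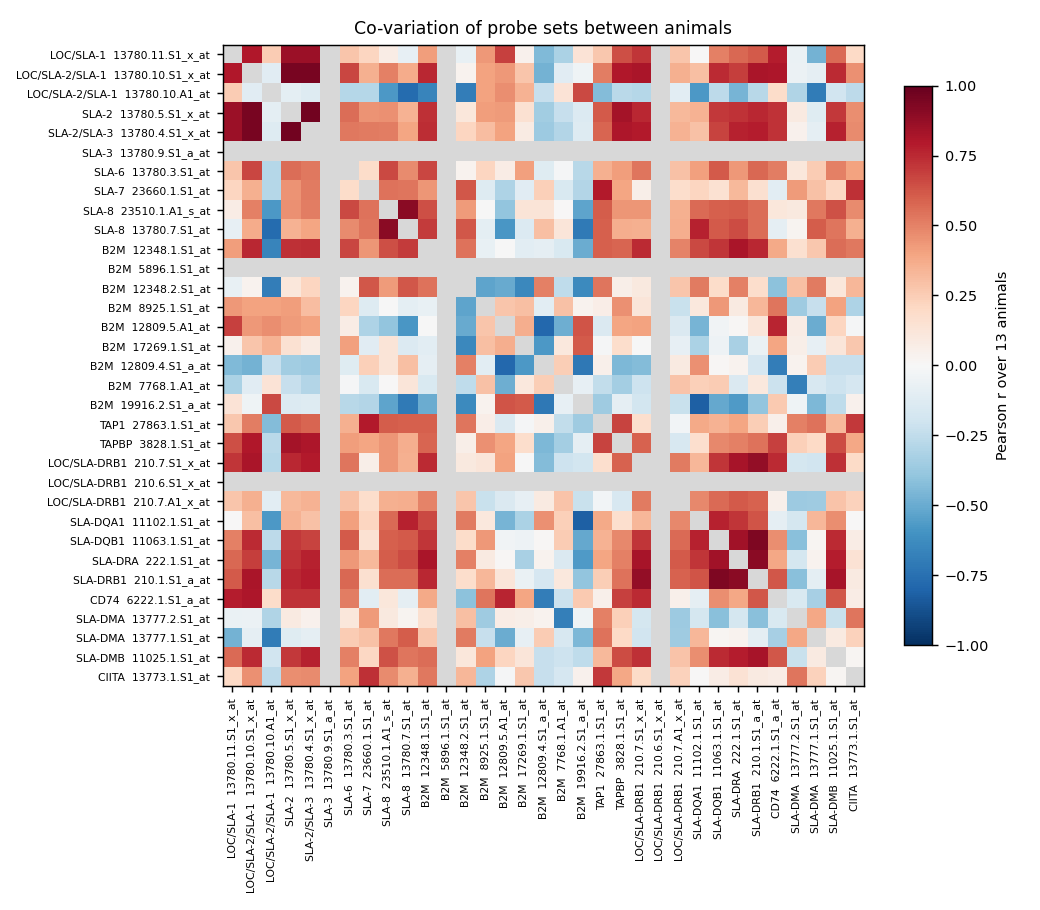
Pearson's r across 13 animals (colour scale from -1 to 1) for each pair of the 33 tested member and shared probe sets, listed on both axes in the order of their roles. Grey rows and columns belong to the 3 probe sets whose animals fell into separate clusters, and grey cells on the diagonal to a probe set with itself. The DR and DQ chains form a red block, and the B2M probe sets do not. SLA-DMB is set apart from that block by CD74 and SLA-DMA, and its r with the chains ran from 0.46 (SLA-DQA1) to 0.82 (SLA-DRB1).

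Genes outside the family whose pattern was most like that of a member were found by Pearson's r over 13 animals after subtracting the group means, as a description. For SLA-DRA they were C1S (0.96) and C1R (0.93), proteases that start the classical complement cascade, then TEC (0.93), TMEM176B (0.91) and PLXDC2 (0.88). For CD74 they were LAMP1 (0.94), a lysosomal membrane protein, PHLDB1 (0.93), ARHGDIA (0.93), MEF2D (0.92) and CD81 (0.91). For the brightest B2M probe set they were CDK9 (0.93), PSAP (0.89), BPTF (0.88), SEC61A1 (0.88) and CTSB (0.88).

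The wider pathway was examined through lists of genes, each gene by its brightest probe set, and 0 genes of any list passed the adjusted threshold. Of 14 tested genes for the supply and loading of class I peptides (19 listed) 11 had a difference below 0, with a median of -0.17. At an unadjusted p under 0.05 there were 2 of 14, near the 10.5 percent of all probe sets, and both had the lower mean after stem cells: PSMB8, an immunoproteasome subunit, at -0.56 ± 0.22, and PSME2, a proteasome activator, at -0.39 ± 0.18. PSMB10, another immunoproteasome subunit, differed by -0.73 ± 0.35 and NPEPPS, a peptidase, by -0.26 ± 0.15. Adjusted p was 0.423 for PSMB8 and 0.459 for PSME2 with limma.

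Of 11 tested genes for class II processing (16 listed) 9 had a difference below 0, with a median of -0.15 and 0 at an unadjusted p under 0.05. CD63 differed by -0.21 ± 0.10, CTSH, a lysosomal protease, by -0.79 ± 0.42, LAMP2 by 0.24 ± 0.13 and LAMP1 by -0.29 ± 0.22. Of 10 tested genes for the control of MHC transcription (21 listed) 7 had a difference below 0, with a median of -0.09. SPI1, a transcription factor of myeloid cells, differed by -0.58 ± 0.21 at an unadjusted p of 0.0166 (adjusted p = 0.423, limma). It was 1 of the 10 at an unadjusted p under 0.05, near the 10.5 percent of all probe sets. RFXANK, a subunit of the complex that binds class II promoters, differed by -0.28 ± 0.24, IFNGR1 by 0.25 ± 0.28 and NFYB by 0.15 ± 0.17.

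Of 19 tested interferon-response genes (27 listed) 7 had a difference below 0, with a median of 0.16, unlike the negative medians above. An unadjusted p under 0.05 was found for 2 of the 19, near the 10.5 percent of all probe sets. These were MX2 at 0.81 ± 0.27 and IFI44L at 0.91 ± 0.43, both antiviral response genes (adjusted p = 0.414 and 0.473, limma). The guanylate-binding proteins GBP1 and GBP2 differed by -0.50 ± 0.31 and -0.66 ± 0.44. The presenting molecules outside the MHC had 3 tested of 8 listed: FCGRT, the neonatal Fc receptor, at -0.37 ± 0.20, AZGP1 at -0.10 ± 0.26 and CD1.1 at 0.03 ± 0.18. Of the costimulatory genes and T cell receptors 4 of 13 were tested: CD40 at -0.27 ± 0.32, CD80 at -0.11 ± 0.15, CD86 at -0.10 ± 0.15 and CD8A at 0.03 ± 0.12.

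Most markers listed for macrophages and monocytes had lower means after stem cells, by unequal amounts and without passing the adjusted threshold. Macrophages carry class II. Of 12 tested macrophage and monocyte markers (18 listed) 11 had a difference below 0, with a median of -0.33, against 6793 of 14399 over all probe sets. An unadjusted p under 0.05 was found for 4 of the 12, where the share over all probe sets was 10.5 percent in either direction: SPI1, TYROBP at -0.76 ± 0.30, ITGB2 at -0.44 ± 0.19 and AIF1 at -0.65 ± 0.29, with adjusted p of 0.423 to 0.457 with limma. The 4 of the list with the largest p differed little: C1QC by -0.15 ± 0.23, MRC1 by -0.11 ± 0.31, CD163 by -0.10 ± 0.39 and CD14 by 0.006 ± 0.24. The list mean ran from 6.33 to 7.02 after saline and from 5.94 to 6.79 after stem cells. SLA-DRA followed this list mean at r of 0.51 and rho of 0.60 over 13 animals (permutation p = 0.077 and 0.0339, adjusted p = 0.231 and 0.271). With the list mean as a covariate the median class II difference was 0.24 in place of -0.04, and the median class I difference -0.03 in place of -0.16. The covariate came from the same arrays and itself differed between the groups, with a mean of 6.665 after saline and 6.303 after stem cells. The fit therefore cannot separate it from the treatment, and the part of macrophage content in the MHC values was not tested.

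T cell and dendritic cell markers were mostly under the level for testing. Of 9 T cell markers on the array 7 were under the level for testing, CD3D, CD3E, CD3G, CD247, CD4, CD8B and LCK, and CD2 differed by -0.08 ± 0.13. Of the B cell markers BLNK and BTK were tested, at 0.16 ± 0.19 and -0.09 ± 0.14, and CD79B was under the level. Of 4 natural killer cell markers on the array 3 were tested: GZMH at -0.27 ± 0.17, GNLY at -0.22 ± 0.25 and KLRK1 at 0.05 ± 0.22. CD83 alone was tested among dendritic markers, at 0.41 ± 0.73. Of 8 tested endothelial markers 5 had a difference below 0, with a median of -0.15. TEK, an angiopoietin receptor, at 0.38 ± 0.17 and ENG, endoglin, at -0.65 ± 0.29 had an unadjusted p under 0.05 (adjusted p = 0.454 and 0.458, limma). That is 1 higher and 1 lower of the 8, where the share over all probe sets was 10.5 percent in either direction.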

How the data were processed

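Total RNA from 13 biopsies was labelled as biotin cRNA and hybridised to porcine arrays, per the labels' protocols. The deposited values are intensities on a linear scale. Per the submitters' processing notes GCRMA was used, which corrects background, normalizes between arrays and summarises probes, so that a shift common to most genes would be lost. The sources used here do not give its settings. The arrays' number limits the precision.

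Of 24123 rows 124 control probe sets were left out. Log2 intensities of 14399 probe sets with a mean above the 40th percentile were compared with limma 3.58.1 in R 4.3.3 (lmFit and eBayes with an intensity trend), with Benjamini-Hochberg adjustment over all of them at 0.05. The fit was tested on simulated data. All 32 members with 1 symbol matched the Sscrofa11.1 gene table by gene ID, which was used for names and gene order only. Correlations used 100000 permutations, whose smallest possible p is 1e-05. A probe set was said to fall into clusters where its widest gap exceeded 40 percent of its range with at least 2 animals on either side. The animals are the replicates. Context genes were the 4 with the smallest p of each list. The members and lists were chosen with earlier results of these data known. Alternatives were another filter, normalization, variance model, floor, covariates, array weights, 1 probe set per gene and leaving out each animal.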

Additional observations from a re-analysis of the deposited data

Results flagged for a closer look

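Single animals stood far from the rest of their group in 4 of 66 groups of member and shared probe sets. Chance flags about 1 in 20 groups, and over all tested probe sets 7.19 percent of groups had such an animal. For B2M Ssc.8925.1.S1_at stem cells replicate 6 was the lowest at a log2 intensity of 6.32, with the others of its group at 12.36 to 13.67. For B2M Ssc.12809.4.S1_a_at stem cells replicate 2 was the highest at 8.60, with the others at 7.42 to 7.90. For B2M Ssc.19916.2.S1_a_at saline replicate 6 was the highest at 4.94, with the others at 4.41 to 4.54. For the LOC106504372 and SLA-DRB1 probe set Ssc.210.6.S1_x_at saline replicate 3 was the highest at 7.85, with the others at 5.21 to 5.75.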

How the results depend on the processing

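The alternative settings numbered 28, some of which gave only class medians and the contrast of the classes. In all those that tested single members, 0 member probe sets passed the threshold, and the smallest adjusted p of a member was 0.397 (limma). The count over all probe sets was 0 to 1 when animals were left out in turn, with the 1 arising without saline replicate 5. Of 690 member differences under alternatives 644 kept their sign and 46 reversed, none of them past the threshold, and 10 members never reversed. The 644 include settings that could not change a difference: another filter, variance model or threshold, and 1 probe set per gene. The median class I difference stayed below 0, at -0.26 to -0.03, and the median class II difference was -0.15 to 0.01 when animals were left out and 0.24 with the macrophage list mean as a covariate. With that covariate SLA-8 Ssc.13780.7.S1_at was at 0.25, B2M Ssc.12348.1.S1_at at 0.0692, B2M Ssc.5896.1.S1_at at 0.036, B2M Ssc.12809.5.A1_at at -0.41, TAPBP at 0.0234, SLA-DQA1 at 0.31, SLA-DQB1 at 0.24, SLA-DRB1 at 0.22, SLA-DMA Ssc.13777.2.S1_at at -0.14 and SLA-DMB at 0.10. With array weights B2M Ssc.12809.4.S1_a_at was at -0.0609, B2M Ssc.19916.2.S1_a_at at 0.0268, TAPBP at 0.0522, SLA-DMA Ssc.13777.2.S1_at at -0.0583 and SLA-DMA Ssc.13777.1.S1_at at -0.0361. SLA-DMA Ssc.13777.2.S1_at was at -0.0013 after a second quantile normalization. The cause was not tested. When animals were left out, ranges that crossed 0 were -0.44 to 0.0318 for SLA-8 Ssc.13780.7.S1_at, -0.0896 to 0.0199 for B2M Ssc.12348.1.S1_at, -0.90 to 0.33 for B2M Ssc.8925.1.S1_at, -0.089 to 0.81 for B2M Ssc.12809.5.A1_at, -0.0773 to 0.12 for B2M Ssc.12809.4.S1_a_at, -0.0571 to 0.0567 for B2M Ssc.19916.2.S1_a_at, -0.42 to 0.0324 for TAP1, -0.12 to 0.0654 for TAPBP, -0.15 to 0.0689 for SLA-DQA1, -0.0493 to 0.17 for SLA-DRA, -0.53 to 0.0421 for CD74, -0.10 to 0.10 for SLA-DMA Ssc.13777.2.S1_at, -0.17 to 0.34 for SLA-DMA Ssc.13777.1.S1_at and -0.18 to 0.0126 for SLA-DMB.

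The labels number animals 1 to 6 in both groups without saying that a number pairs them. Same-numbered deviations correlated at -0.27 to 0.24, and 1 of 12 animals was closest to its own number, so the numbers were not taken to pair the animals. With the replicate block the count of calls was 0 over all probe sets, and SLA-DMA Ssc.13777.2.S1_at was at -0.0488.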

Other observations

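Animals fell into separate clusters for 3 probe sets, SLA-3, the LOC106504372 and SLA-DRB1 probe set Ssc.210.6.S1_x_at, and B2M Ssc.5896.1.S1_at, where stem cells replicates 3 and 6 lay at 13.36 and 13.34 and the other 11 animals at 13.72 to 13.96. Within the upper 8 animals of SLA-3, a choice made after seeing the data, SLA-3 correlated with SLA-2 at r of -0.34 (exact permutation p = 0.395, rho -0.14) and with the LOC100513601 and SLA-1 probe set at r of -0.64 (exact permutation p = 0.0946, adjusted over 3 relations 0.284, rho -0.36). Without the 2 animals farthest from the median these values were 0.87 and 0.59, so the sign rested on those animals.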
